A study of Bos taurus with 16 samples.

Results

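ADAMTS1, ADAMTS10 and ADAM33 are 3 genes of the zinc metalloproteases that act at the cell surface and in the extracellular matrix, out of the 27607 genes listed for the prefrontal cortex (PFC) of each bull. They were chosen from the study's own list of genes that differed between the breeds, in which all 3 stand as higher in the Lidia bulls, so the difference between the breeds is given below as a description, with no test. The samples are the PFC of 16 non-castrated male bovines, 8 of the Lidia breed, selected for aggressive behaviour, and 8 Wagyu bulls, a breed selected for meat quality and docility. The Lidia bulls came from 2 farms, 4 from La Quinta (bulls Agg_8312, Agg_8314, Agg_8320 and Agg_8324) and 4 from Montealto (Agg_8162, Agg_8165, Agg_8171 and Agg_8174), and had been incited to fight before death. The 8 Wagyu bulls (Non_agg_1, 3, 4, 5, 6, 7, 9 and 12) came from a single farm and were sampled at a slaughterhouse, while the Lidia bulls were sampled at the bullring. Breed, farm, feeding, handling before death and place of sampling therefore cannot be told apart. All bulls were 3 years old except Montealto bull Agg_8174, which was 4 years old. The farm of each bull came from the study's sample table, matched by the animal number in the sample title.

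ADAM proteins are anchored in the membrane, with a metalloprotease domain that sheds other surface proteins and a disintegrin domain. ADAMTS proteins are secreted, carry thrombospondin repeats in place of the membrane anchor, and bind to and cut the matrix. ADAMTS1 cleaves the proteoglycans versican and aggrecan and restrains the growth of blood vessels. ADAMTS10 binds fibrillin and supports the assembly of microfibrils, the scaffold of elastic tissue, and its loss in people gives a short-stature syndrome with eye defects. ADAM33 is expressed mostly by fibroblasts and smooth muscle cells and became known as a susceptibility gene for asthma. All are made with a propeptide that is removed as the enzyme becomes active, so the RNA level measured here does not give the activity of the enzyme.

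On ARS-UCD 1.2, ADAMTS1 (ENSBTAG00000000706) lies on chromosome 1 from 9583345 to 9592271 on the plus strand, with a single annotated transcript of 9 exons and 4488 exonic bases. ADAMTS10 (ENSBTAG00000014207) lies on chromosome 7 from 17159713 to 17179480 on the minus strand, with 1 transcript of 25 exons and 4307 bases. ADAM33 (ENSBTAG00000013163) lies on chromosome 13 from 51512829 to 51523330 on the plus strand, with 4 transcripts of 1974 to 2337 bases. None of the 3 overlapped another annotated gene. The nearest gene to ADAMTS10, ENSBTAG00000007661, is on the same strand and 1988 bases away.

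The level of a gene is its FPKM, the fragments on a transcript divided by its exonic length in kilobases and by the mapped fragments in units of 1 M, summed over its transcripts and rescaled between animals by the median of ratios. The fragments behind the files ranged from 7.67 M to 37.0 M per animal (M, the prefix mega). In Wagyu bull Non_agg_5 and La Quinta bull Agg_8324, the shallowest libraries at 7.67 M and 13.7 M, the deposited FPKM stood 2.21 and 1.78 times above the common level, against 0.617 to 1.13 times in the other 14 animals, and the rescaling removes this. Montealto bull Agg_8165 stood apart in another way. Its summed endothelial genes reached 117 FPKM against 33.4 to 43.7 in the other Lidia bulls. Its mural, astrocyte, oligodendrocyte and microglia genes were also the highest of the 16. Its deposited FPKM stood lowest of the 16 against the common level, at 0.617 times, so the rescaling raised its values. Its library held 20.0 M fragments, and its mitochondrial share of the summed FPKM, 38.4%, was the highest in Lidia. Results that turn on bull Agg_8165 are given with and without it. Markers of neurons were present in every library, with SLC17A7, the vesicular glutamate transporter of excitatory neurons, at a mean of 117 ± 20.3 FPKM in Lidia and 153 ± 23.5 in Wagyu bulls (SD, n = 8 each). The 3 genes were low in this tissue. The number of fragments that a value rested on ranged from 21.2 to 240.4 for ADAMTS1, from 81.2 to 352 for ADAMTS10 and from 7.76 to 206 for ADAM33, with the lowest ADAM33 value in Wagyu bull Non_agg_1.

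ADAMTS1 was at 0.386, 1.04, 0.845 and 0.725 FPKM in La Quinta bulls Agg_8312, Agg_8314, Agg_8320 and Agg_8324. In Montealto bulls Agg_8162, Agg_8165, Agg_8171 and Agg_8174 it was at 1.43, 0.859, 0.871 and 1.86 FPKM. The Wagyu bulls ranged from 0.234 to 0.771 FPKM with a median of 0.500. 6 of the 8 Lidia values lay above every Wagyu value, so the breeds overlapped only through La Quinta bulls Agg_8312 and Agg_8324. The mean was 1.00 ± 0.452 FPKM in Lidia and 0.514 ± 0.182 in Wagyu bulls (SD, n = 8 each), a difference of 0.80 ± 0.27 (SE) on the log2(FPKM + 0.1) scale. The 4 Montealto bulls were all above all 8 Wagyu bulls, and the highest value of all belonged to bull Agg_8174, the 4-year-old.

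ADAMTS10 was the highest of the 3 genes and varied least. It was at 1.69, 1.81, 2.10 and 2.196 FPKM in La Quinta bulls Agg_8312, Agg_8314, Agg_8320 and Agg_8324. It was at 1.70, 2.22, 1.56 and 1.64 FPKM in Montealto bulls Agg_8162, Agg_8165, Agg_8171 and Agg_8174. The Wagyu bulls ranged from 0.803 to 2.09 FPKM with a median of 1.27, and 6 of the 8 lay below every Lidia bull. The remaining 2, Non_agg_3 and Non_agg_4 at 2.09 and 1.63 FPKM, lay inside the Lidia range. The mean was 1.87 ± 0.265 FPKM in Lidia and 1.34 ± 0.379 in Wagyu bulls, a log2 difference of 0.48 ± 0.15 (SE), the smallest of the 3. Between the highest and the lowest Lidia bull ADAMTS10 differed 1.42-fold, against 4.81-fold for ADAMTS1 and 8.18-fold for ADAM33.

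ADAM33 was at 0.685, 1.35, 2.15 and 1.48 FPKM in La Quinta bulls Agg_8312, Agg_8314, Agg_8320 and Agg_8324. It was at 2.35, 0.287, 1.02 and 0.851 FPKM in Montealto bulls Agg_8162, Agg_8165, Agg_8171 and Agg_8174. The Wagyu bulls ranged from 0.165 to 1.08 FPKM with a median of 0.562, and Non_agg_3 and Non_agg_4 were again the highest of their breed. Only 4 Lidia bulls lay above all the Wagyu bulls, and Montealto bull Agg_8165 lay below all but Wagyu bull Non_agg_1. The mean was 1.27 ± 0.711 FPKM in Lidia and 0.594 ± 0.279 in Wagyu bulls, a log2 difference of 0.90 ± 0.38 (SE), and the Lidia mean was 1.41 ± 0.637 FPKM without bull Agg_8165 (n = 7).

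**Figure D1:**
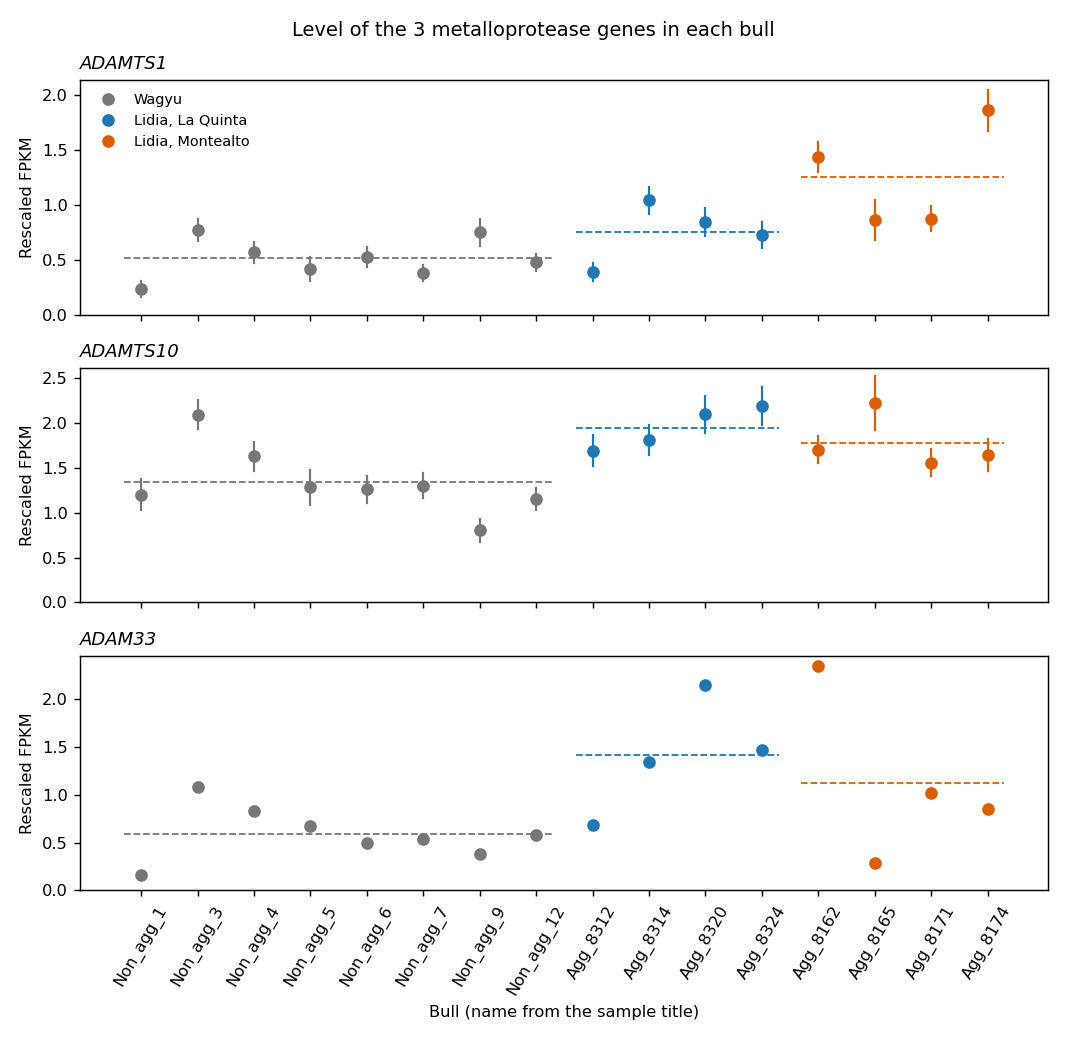
Rescaled FPKM of ADAMTS1, ADAMTS10 and ADAM33 (y axes, from 0) in each of the 16 bulls (x axis), coloured by farm, with the mean of each farm as a dashed line and, for the genes with a single transcript, the confidence bounds deposited by the authors as vertical lines. ADAMTS1 is highest in the Montealto bulls Agg_8162 and Agg_8174 at 1.43 and 1.86 FPKM, whereas ADAM33 is highest in bulls Agg_8162 and Agg_8320 at 2.35 and 2.15 FPKM.

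In limma over 16577 genes, 552 genes (3.33%) were called higher in Lidia and 275 (1.66%) lower, with 0.05 as the limit of the adjusted p and 0.1 as the least size of the log2 difference. The outcome of that fit is not given for the 3 genes, since the breed difference chose them. On the FPKM as deposited, without rescaling, limma called 0 genes between the breeds, and 1022 had an unadjusted p under 0.05. The bounds that Cufflinks gave with each value, which cover the counting and assignment of fragments but not the difference between animals, had a median width on each side of 16.4% of the value for ADAMTS1 and 10.4% for ADAMTS10. The SD between Lidia bulls was 45.2% and 14.2% of the mean for these genes, and between Wagyu bulls 35.4% and 28.2%. The width of confidence bounds and an SD are unlike measures, so these percentages cannot be set directly against each other.

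The comparison of the Lidia farms was not used to choose the genes. ADAMTS1 was lower in La Quinta (0.749 ± 0.274 FPKM) than in Montealto bulls (1.25 ± 0.481, SD, n = 4 each), a log2 difference of -0.67 ± 0.33 (SE) that did not pass limma's test over 16488 genes (adjusted p = 0.95) or the exact two-sided permutation test (p = 0.143, where 0.0286 is the smallest that 4 against 4 can give). Of the La Quinta bulls 3 of 4 lay below every Montealto bull. ADAMTS10 differed by 0.13 ± 0.15 on the log2 scale (limma adjusted p = 0.95, exact permutation p = 0.343). ADAM33 differed by 0.50 ± 0.54 (limma adjusted p = 0.95, exact permutation p = 0.486), with bulls of both farms at both ends of the range. The ADAM33 difference was 0.04 without Montealto bull Agg_8165 and 0.93 without Montealto bull Agg_8162, and was called in neither case (limma adjusted p = 0.981 and 0.868). Thus 0 of the 3 genes were called between the farms, and 0 of 3 had an unadjusted p under 0.05. Over all genes tested, limma called 2 genes higher in La Quinta (0.0121%) and 5 lower (0.0303%), and 665 had an unadjusted p under 0.05. For ADAMTS1 the difference stayed below 0 when each Lidia bull in turn was left out.

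Within an animal FPKM was compared between genes, since it is divided by transcript length. Whether anything besides length sets these genes apart in FPKM was not tested. The p-values therefore give only how regularly the order recurred across animals. ADAMTS10 exceeded ADAMTS1 in 8 of 8 Wagyu bulls, by 1.25 ± 0.19 on the log2 scale (SE, exact sign-flip permutation test, p = 0.00781, the smallest that 8 animals can give, adjusted p = 0.0234 over 6 comparisons). In the Lidia bulls ADAMTS10 exceeded ADAMTS1 in 7 of 8, by 0.93 ± 0.24 (exact permutation p = 0.0156, adjusted p = 0.0312), and bull Agg_8174 was the exception. Without La Quinta bull Agg_8324, or without Montealto bull Agg_8165, the Lidia result missed the threshold (adjusted p = 0.0625 in each case, with 7 animals). ADAMTS10 exceeded ADAM33 in 8 of 8 Wagyu bulls, by 1.13 ± 0.17 (exact permutation p = 0.00781, adjusted p = 0.0234). In Lidia it did so in 6 of 8 bulls, by 0.71 ± 0.32 (exact permutation p = 0.0469, adjusted p = 0.0703), and ADAM33 was the higher gene in bulls Agg_8320 and Agg_8162. ADAMTS1 and ADAM33 were not told apart in level, with log2 differences of -0.22 ± 0.33 in Lidia and -0.12 ± 0.17 in Wagyu bulls (exact permutation p = 0.531 and 0.484). In the Wagyu bulls ADAMTS10 thus stood first and the other two genes lay within each other's spread, while in Lidia ADAMTS10 and ADAM33 were not told apart after adjustment.

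Whether the 3 genes moved together from bull to bull was examined inside each breed, where the difference between breeds does not enter. No relation between them passed the test in the Lidia bulls. Pearson's r over 8 animals was -0.238 between ADAMTS1 and ADAMTS10, 0.252 between ADAMTS1 and ADAM33, and -0.119 between ADAMTS10 and ADAM33 (exact permutation p = 0.574, 0.553 and 0.787), with Spearman's rho at -0.381, 0.167 and 0.0714 (exact permutation p = 0.360, 0.703 and 0.882). In the Wagyu bulls r was 0.149, 0.662 and 0.663 for the same pairs (exact permutation p = 0.745, 0.0739 and 0.0777) and rho was 0.214, 0.476 and 0.762 (exact permutation p = 0.619, 0.243 and 0.0368). None passed after adjustment over the 6 relations, where the lowest adjusted p was 0.233 for r and 0.221 for rho by exact permutation. The Wagyu relation of ADAMTS1 to ADAM33 rested on 2 animals, since without the 2 bulls farthest from the median of ADAMTS1 its r was -0.422. The relation of ADAMTS10 to ADAM33 in Lidia changed sign without bull Agg_8165, to 0.509. Centred on the farm means, r in the Lidia bulls was -0.0307, 0.573 and -0.257 for the 3 pairs. The difference in r between the breeds was not tested.

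ADAM33 followed the genes of meningeal fibroblasts, the collagen-producing cells of the membranes around the brain. The level of the list is the summed FPKM of its 11 genes with a symbol out of 12, which include the collagens COL1A1 and COL3A1, the proteoglycans DCN and LUM and the transcription factors FOXC2 and TBX18. In Lidia, bulls Agg_8165, Agg_8312, Agg_8171 and Agg_8174 had list levels of 13.5, 16.0, 20.2 and 25.0 FPKM. Bulls Agg_8314, Agg_8324, Agg_8320 and Agg_8162 had levels of 49.3, 63.6, 71.7 and 93.3 FPKM. ADAM33 rose in nearly the same order, from 0.287 FPKM in bull Agg_8165 to 2.35 in bull Agg_8162, with only bulls Agg_8171 and Agg_8174 exchanged. Pearson's r over the 8 Lidia bulls was 0.925 (exact permutation p = 0.000347, adjusted p = 0.0125 over 72 relations of the 3 genes to 12 gene lists in both breeds) and rho was 0.976 (exact permutation p = 0.000397). It was 0.933 without the 2 bulls farthest from the median list level, and 0.917 after centring on the farm means. Each of the 11 genes had an r above 0 with ADAM33 in Lidia, between 0.805 and 0.970.

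In the Wagyu bulls the list level was at most 9.19 FPKM in 6 bulls and was 24.5 and 28.8 FPKM in Non_agg_4 and Non_agg_3, which also had the highest ADAM33. There r was 0.693 (exact permutation p = 0.0572, adjusted p = 0.223, rho = 0.571, exact permutation p = 0.151) and fell to 0.178 without Non_agg_3 and Non_agg_4, so the Wagyu relation rested on these 2 animals. The list differed between the breeds in the same direction as the 3 genes, at 13.5 to 93.3 FPKM in Lidia and 4.99 to 28.8 in Wagyu bulls. Its 11 genes and the 3 genes all came from the study's list of breed differences, so the shared direction is not independent evidence. Of the 11 genes 0 were at 0 in any animal. What part the amount of meningeal tissue in a sample had in the breed difference of ADAM33 was not tested. In bulk tissue, fewer cells of a type and less RNA per cell cannot be told apart.

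**Figure D2:**
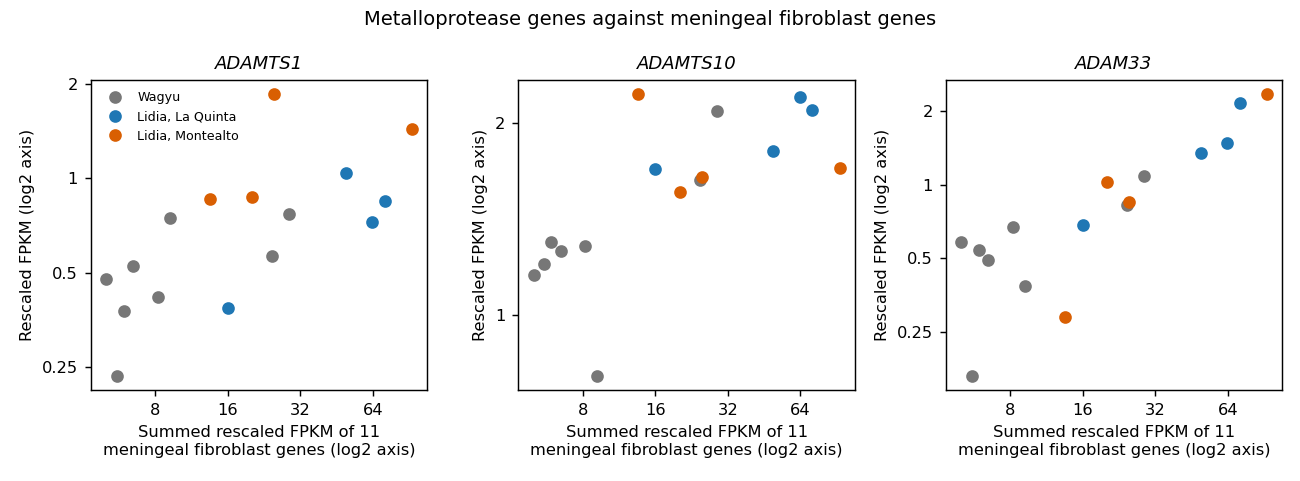
Rescaled FPKM of each gene (y axis, log2) against the summed rescaled FPKM of 11 meningeal fibroblast genes (x axis, log2), with 1 point per bull, coloured by farm. ADAM33 climbs with the list over the 8 Lidia bulls (r = 0.925), while ADAMTS1 (r = 0.323) and ADAMTS10 (r = 0.178) scatter.

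For ADAMTS1 and ADAMTS10 the relation did not pass the test in Lidia, where r with the meningeal list was 0.323 and 0.178 (exact permutation p = 0.441 and 0.681). Their rho was 0.238 and 0.0952 (exact permutation p = 0.582 and 0.840). The relation of the list to ADAM33 and to the other two genes was not compared by a test.

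The summed level of the substrates and partners of ADAMTS1 was related to ADAM33 in both breeds, while its relation to ADAMTS1 did not pass the test. Of 12 listed genes 7 had a symbol, among them the proteoglycans VCAN (versican) and SDC4 (syndecan), the basement membrane nidogens NID1 and NID2, the thrombospondin THBS2 and FBLN1 (fibulin), a cofactor that binds ADAMTS1. Their summed level had an r of 0.272 with ADAMTS1 in Lidia and 0.493 in Wagyu bulls (exact permutation p = 0.517 and 0.218, adjusted p = 0.653 and 0.422), and a rho of 0.238 and 0.476 (exact permutation p = 0.582 and 0.243). With ADAM33 the same sum had an r of 0.918 in Lidia (exact permutation p = 9.92e-05, adjusted p = 0.00714) and 0.898 in Wagyu bulls (exact permutation p = 0.000818, adjusted p = 0.0196). Without Non_agg_5, the shallowest library, the Wagyu value was 0.895 and missed the threshold (exact permutation, adjusted p = 0.0619). In the Wagyu bulls the order of the 8 animals by the sum and by ADAM33 was identical (rho = 1, exact permutation p = 4.96e-05, the smallest that 8 animals can give). In Lidia Spearman's coefficient was 0.976 (exact permutation p = 0.000397). By this sum the 8 Lidia bulls stood in the same order as by the meningeal fibroblast list. The relations of ADAM33 to these lists in Lidia are therefore not separate results. Without the 2 animals farthest from the median, r was 0.925 and 0.862. FBLN1 made up 68.1% of the sum in Lidia and 31.3% in Wagyu bulls, and without it r was 0.916 and 0.913. SDC4 made up the largest share in Wagyu bulls, 36.5%, and without SDC4 r was 0.911 in Lidia and 0.771 in Wagyu bulls. Among the single genes, SDC4 had an r with ADAM33 of 0.956 in Lidia and 0.874 in Wagyu bulls, and THBS2 of 0.913 and 0.686. VCAN, the best known substrate, had an r with ADAMTS1 of 0.756 in Lidia and -0.0334 in Wagyu bulls (n = 8 each, given as a description). The difference between the relations to ADAM33 and to ADAMTS1 was not tested.

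The microfibril genes, to which the function of ADAMTS10 belongs, had 9 of 19 members with a symbol, among them the elastic fibre protein ELN (elastin), the fibulins FBLN2 and FBLN5, MFAP2, MFAP5 and the crosslinking enzyme LOXL1. Their summed level had an r with ADAMTS10 of 0.851 in Wagyu bulls, just short of the threshold after adjustment (exact permutation p = 0.00285, adjusted p = 0.0513, rho = 0.833, exact permutation p = 0.0154). Without the 2 Wagyu bulls farthest from the median it was 0.392. In Lidia r was 0.386 (exact permutation p = 0.319, rho = 0.524, exact permutation p = 0.197). The microfibril list was not particular to ADAMTS10. With ADAM33 its r was 0.764 in Lidia (exact permutation p = 0.0244, adjusted p = 0.162). In Wagyu bulls that r was 0.714 (exact permutation p = 0.0476, adjusted p = 0.223). Without 2 animals these were 0.673 and 0.257. ADAMTS10 in the Wagyu bulls also had an r of 0.857 with the astrocyte list and 0.812 with the microglia list (exact permutation p = 0.00739 and 0.0119, adjusted p = 0.0887 and 0.123), and a rho of 0.595 and 0.857 (exact permutation p = 0.132 and 0.0107). The astrocyte value fell to 0.439 without 2 animals, whereas the microglia value was then 0.820. With the substrates and partners of ADAMTS1 its r in Wagyu bulls was 0.855 (exact permutation p = 0.00392, adjusted p = 0.0564, rho = 0.762, exact permutation p = 0.0368), and 0.507 without 2 animals. With the matrix metalloproteases r was 0.767 (exact permutation p = 0.0199, adjusted p = 0.159, rho = 0.524, exact permutation p = 0.197), and -0.222 without 2 animals. In Lidia none of these relations of ADAMTS10 passed. There r was 0.482 for astrocytes and 0.192 for microglia (exact permutation p = 0.225 and 0.686). It was 0.216 for the substrates and 0.487 for the metalloproteases (exact permutation p = 0.613 and 0.220). Without 2 animals the Lidia values were 0.262, -0.781, 0.895 and 0.842 in this order.

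Over the 72 relations, 14 had an unadjusted p under 0.05 and 3 an adjusted p of at most 0.05, and these 3 all belonged to ADAM33. Those in Lidia are not separate results, since the meningeal and substrate lists ordered the Lidia bulls alike. With the other cell types the Lidia value of ADAM33 ran the other way for the endothelial list (r = -0.746, exact permutation p = 0.0575, adjusted p = 0.223, rho = -0.452, exact permutation p = 0.267), where bull Agg_8165 combined the highest endothelial level with the lowest ADAM33 of its breed. Without the 2 bulls farthest from the median it was -0.377. CLDN5, whose own r with ADAM33 was -0.821 in Lidia, made up most of the endothelial sum there. Of the 7 endothelial genes only CDH5 and KDR had an r above 0 with ADAM33 in Lidia, at 0.639 and 0.652. The others lay between -0.891 (SOX17) and -0.0015 (FLT1). In the Wagyu bulls all 7 were above 0, and the list had an r of 0.539 (exact permutation p = 0.169). The oligodendrocyte list had r values of -0.654 and -0.740 with ADAM33 in Lidia and Wagyu bulls (exact permutation p = 0.0938 and 0.0474, adjusted p = 0.260 and 0.223), and rho was -0.167 and -0.524 (exact permutation p = 0.703 and 0.197). The r values became 0.596 and -0.360 without the 2 animals farthest from the median. ADAMTS1 had 1 of its 24 relations at an unadjusted p under 0.05, with the blood list, which is HBB alone (r = 0.775 in Wagyu bulls, exact permutation p = 0.0248, adjusted p = 0.162, rho = 0.548, exact permutation p = 0.171). Without the 2 Wagyu bulls farthest from the median that r was 0.311.

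**Figure D3:**
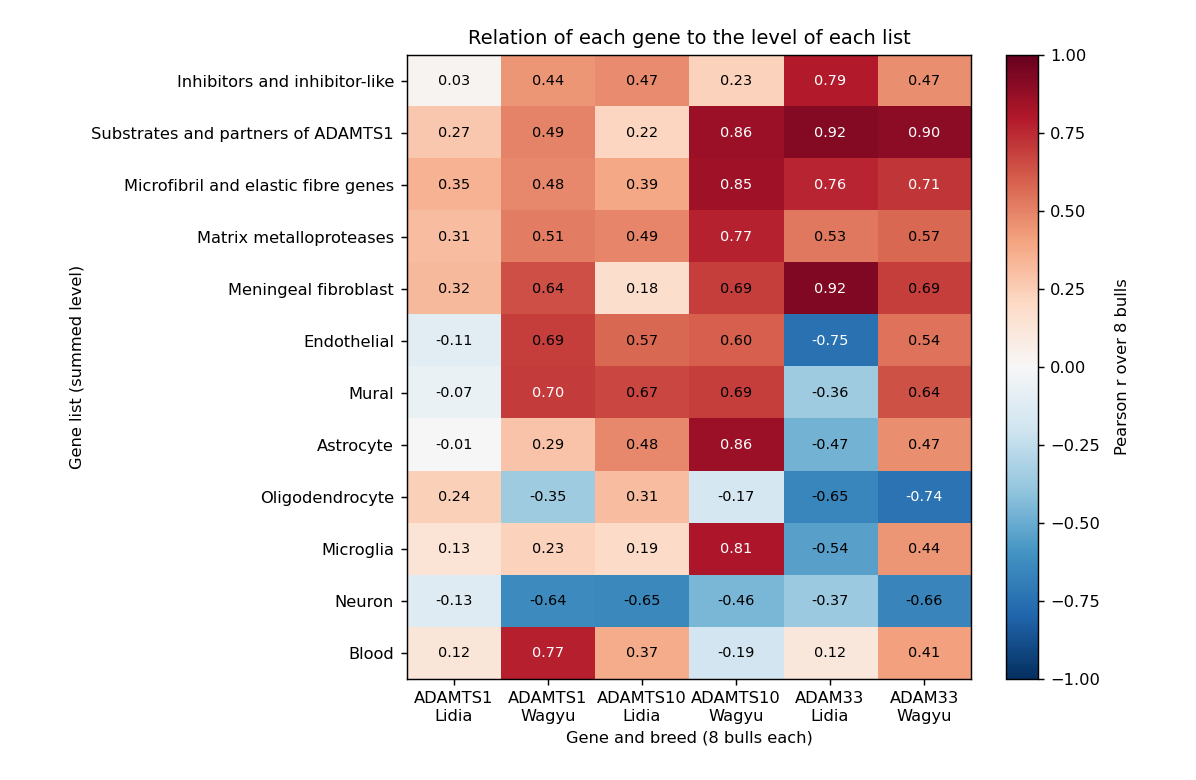
Pearson's r between each gene in each breed (columns, 8 bulls each) and the summed level of each gene list (rows), on the log2(FPKM + 0.1) scale. The highest values are those of ADAM33 with the meningeal fibroblast list in Lidia and with the substrates and partners of ADAMTS1 in both breeds, at 0.925, 0.918 and 0.898.

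The members of the lists that have a symbol were all on the study's list of genes that differed between the breeds, chosen from these same samples. Their direction, the share of them called and their limma p-values between the breeds are therefore not independent evidence. They are given as a description. Of the 7 substrates and partners 5 were called higher in Lidia and 0 lower, with a median log2 difference of 0.80. The share of 3.33% of all genes called higher and the median of -0.01 over all genes are no reference for members chosen this way. FBLN1 rose from 3.35 ± 3.08 FPKM in Wagyu to 17.96 ± 13.1 in Lidia bulls (log2 difference 2.38, limma adjusted p = 0.0237). SDC4 was the exception in sign at -0.67 (limma adjusted p = 0.118). Of the microfibril genes 5 of 9 were called higher and 0 lower (median 0.86), of the matrix metalloproteases 2 of 3 (median 1.203) and of the inhibitors 1 of 2. The metalloproteases called were MMP2, a gelatinase, at 3.19 ± 0.996 against 1.36 ± 0.588 FPKM (limma adjusted p = 0.0108), and MMP14, the membrane protease that activates it, at 1.96 ± 1.11 against 0.620 ± 0.437 (limma adjusted p = 0.0238). The inhibitor called was RECK, a membrane-anchored inhibitor of metalloproteases, at 0.799 ± 0.2496 against 0.426 ± 0.115 FPKM (limma adjusted p = 0.0288). None of the 4 propeptide convertases had a symbol. Of the marker genes, 6 of 11 meningeal fibroblast, 3 of 7 endothelial, 2 of 5 mural, 3 of 7 astrocyte, 1 of 7 oligodendrocyte and 2 of 5 microglia genes were called higher, 0 of 7 neuron genes and 0 of 1 blood gene were, and 0 of any list were called lower. Between the farms 0 genes of any list were called, beside shares of 0.0121% and 0.0303% of all genes.

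Other ADAMTS genes of the study's list were ADAMTS4, ADAMTS8 and ADAMTS15. ADAMTS4, an aggrecan-cleaving enzyme, was at 0.505 to 0.675 FPKM in La Quinta and 0.684 to 1.09 in Montealto bulls, so that the farms did not overlap (log2 difference -0.49 ± 0.18, exact permutation p = 0.0286, the smallest possible, limma adjusted p = 0.95). The 8 Wagyu bulls ranged from 0.276 to 0.774 FPKM. ADAMTS15 had a mean of 0.423 ± 0.122 FPKM in Lidia and 0.268 ± 0.0554 in Wagyu bulls. ADAMTS8, whose product restrains blood vessel growth, went the other way, at 0.331 ± 0.0659 FPKM in Lidia and 0.546 ± 0.141 in Wagyu bulls. The log2 difference of ADAMTS8 was -0.57 ± 0.13 (SE), given as a description, since these genes too come from the list the study chose on the same samples. ADAMTS8 and ADAMTS15 are neighbours on chromosome 29, 26155 bases apart on opposite strands, and their r within a breed was 0.0208 in Lidia and 0.0817 in Wagyu bulls.

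Among 1098 genes with a symbol, the 5 most like ADAMTS1, ADAMTS10 and ADAM33 had no gene in common. Likeness was the mean of the Fisher-transformed r within Lidia and within Wagyu bulls. Only genes on the study's list of breed differences have a symbol here. Out of all 16576 genes ranked, the 5 named stood between 3 and 45 for ADAMTS1. They stood between 1 and 10 for ADAMTS10, and between 1 and 11 for ADAM33. They are given as a description, since they were picked for their likeness. The choice moved with single libraries, since without Agg_8165 only 1 of the 5 genes of ADAMTS10, and 3 of the 5 of ADAMTS1 and of ADAM33, were again among the 5. For ADAMTS1 they were ADAMTS15 (r = 0.864 in Lidia and 0.807 in Wagyu bulls), NR4A1 (0.838 and 0.794), KLF4 (0.742 and 0.854), MYO1E (0.774 and 0.730) and HSD17B6 (0.579 and 0.819). NR4A1 encodes an orphan nuclear receptor induced early after a stimulus, KLF4 a zinc finger transcription factor and MYO1E an unconventional myosin. NR4A1 was at 6.60 ± 2.94 FPKM in Lidia and 4.58 ± 2.14 in Wagyu bulls.

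For ADAMTS10 the 5 were AIFM3 (0.791 and 0.973), MKNK2 (0.911 and 0.789), SEC61A1 (0.422 and 0.971), EPHB4 (0.731 and 0.913) and GLIS2 (0.770 and 0.892). MKNK2 is a kinase of the translation initiation factor that binds the mRNA cap, SEC61A1 a subunit of the channel that takes proteins into the endoplasmic reticulum, and EPHB4 an ephrin receptor of veins. For ADAM33 they were FUCA2 (0.967 and 0.933), PDGFRB (0.975 and 0.911), TLR3 (0.991 and 0.715), FGFR1 (0.964 and 0.890) and MDFIC (0.956 and 0.896). PDGFRB is the platelet-derived growth factor receptor of mural cells and fibroblasts, FGFR1 a fibroblast growth factor receptor and FUCA2 a fucosidase. PDGFRB is also a member of the mural list. Of the 5 mural genes, only PDGFRB had an r above 0 with ADAM33 in Lidia. The others were at -0.133 (NOTCH3), -0.247 (MYL9), -0.600 (CSPG4) and -0.661 (TPM2). In the Wagyu bulls 4 of the 5 were above 0. The summed mural list had an r with ADAM33 of -0.356 in Lidia and 0.637 in Wagyu bulls (exact permutation p = 0.382 and 0.101). Without the 2 animals farthest from the median these were 0.781 and -0.0179. Out of 16576 genes ranked by likeness to ADAMTS1, ADAM33 stood at 978 and ADAMTS10 at 9410.

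**Figure D4:**
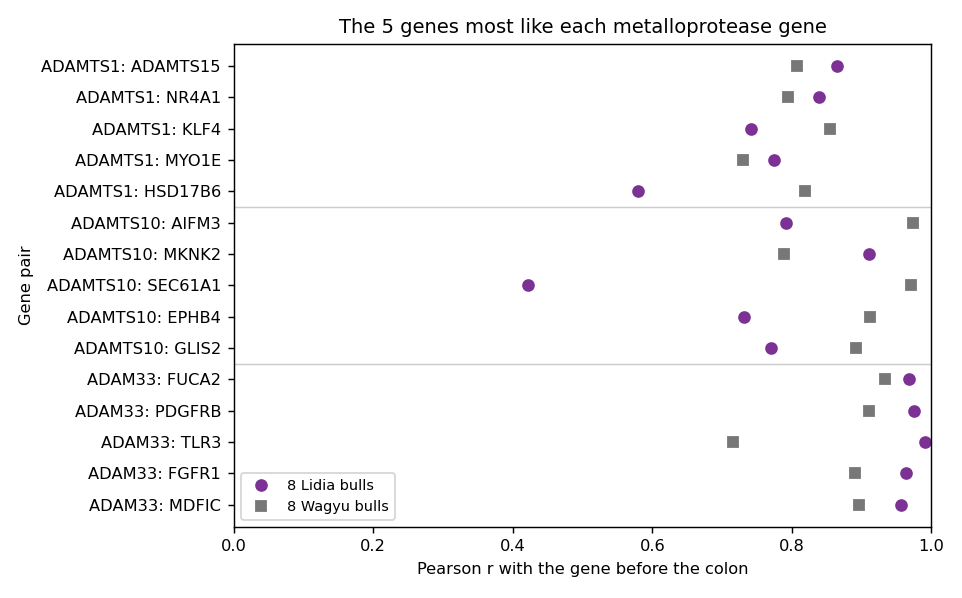
Pearson's r (x axis) of the 5 genes most like ADAMTS1, ADAMTS10 and ADAM33 among the genes with a symbol (rows), within the 8 Lidia bulls (circles) and within the 8 Wagyu bulls (squares). The 5 genes of ADAM33 lie at 0.956 or above in Lidia, and the lowest value is that of SEC61A1 with ADAMTS10 in Lidia at 0.422.

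ADAM33 is the only one of the 3 with several annotated transcripts, 3 of which share a start at 51515054 while ENSBTAT00000017511 begins at 51512829. ENSBTAT00000073875, of 18 exons and 2337 bases, held the largest part of the gene's FPKM in 7 of 8 Wagyu and 6 of 8 Lidia bulls, with a median share of 86.5% and 77.7%. ENSBTAT00000074006, of 16 exons, was the largest in Wagyu bull Non_agg_12 (60.4%) and Montealto bull Agg_8171 (53.7%). ENSBTAT00000074389 was below 0.01 FPKM in all 16 animals. The longer-reaching ENSBTAT00000017511 was listed at 0.01 FPKM or more in 4 Lidia bulls and 1 Wagyu bull. It held 99.9% of ADAM33 in Montealto bull Agg_8165, at 0.287 FPKM with deposited bounds of 0.128 and 0.446, and ENSBTAT00000073875 was below 0.01 FPKM there. Cufflinks divides fragments between overlapping transcripts by an estimate, so the shares are less firm than the sum over the transcripts. In the Wagyu bull Non_agg_1 ADAM33 as a whole rested on 7.76 fragments. Bull Agg_8165 was also thin, with a deposited ADAM33 value of 0.177 FPKM in a library of 20.0 M fragments. Its transcript share and its low ADAM33 level therefore rest on few fragments.

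**Figure D5:**
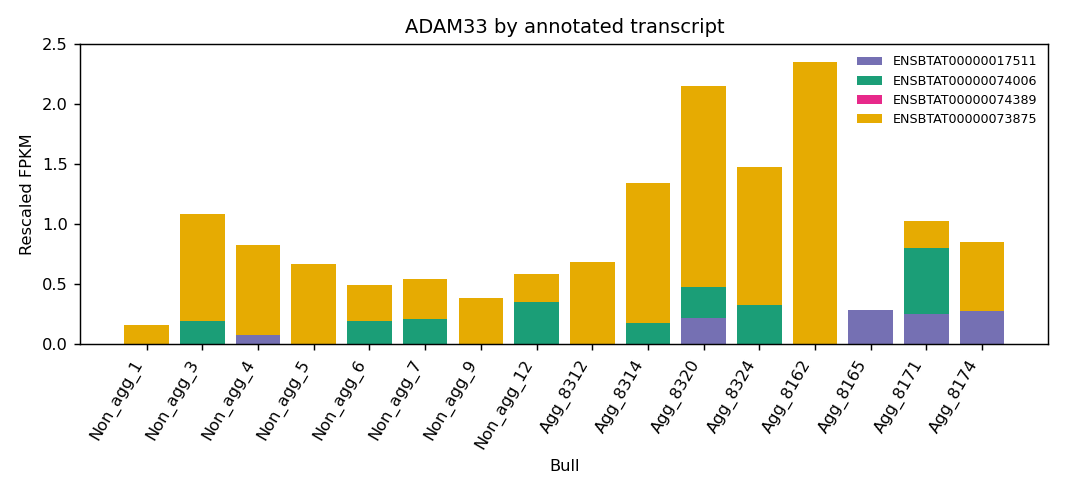
Rescaled FPKM of ADAM33 in each bull (bars from 0, x axis), stacked by annotated transcript. ENSBTAT00000073875 makes up most of the bar in 13 of 16 bulls. Bull Agg_8165 is made up of ENSBTAT00000017511 at 0.287 FPKM, a value that rests on few fragments.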

How the data were processed

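For each animal the authors trimmed paired-end reads of 100 bases with PRINSEQ, mapped them with STAR 2.7.3a to ARS-UCD 1.2 with the Ensembl annotation, sorted them with SAMtools 0.1.18 and estimated transcript abundance with Cufflinks 2.2.1. The deposited files hold the FPKM, coverage and confidence bounds of 43984 transcripts, an attribute field with no other scaling between animals, made before the authors' Cuffmerge and Cuffdiff steps. Strand use in the quantification is not given in the sources used here. A single library was made per animal, so the spread behind the p-values joins differences between animals with those of sampling and library preparation.

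FPKM was summed per gene and divided by a median-of-ratios factor over 15998 genes above 0 in all 16 animals. Depth was read from coverage over FPKM at 200 bases per fragment. Genes were kept at a mean FPKM of 0.1 or more and compared on log2(FPKM + 0.1), which understates changes of low genes, with limma 3.58.1 in R 4.3.3 (variance trend, two-sided, Benjamini-Hochberg), called at an adjusted p of 0.05 and a log2 difference of 0.1. Exact permutation tests used Python 3.11.15, numpy 2.4.6 and scipy 1.17.1. The tests were checked on simulated data. Symbols came from the study's gene list, paired by position: 1163 of 1197 entries had a gene. ADAMTS7 was not paired and is not analysed here.

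The 3 genes and the lists were chosen with earlier results of these data known. The genes named are the 3, the other ADAMTS genes of the study's list, the 5 symbol-bearing genes most like each, and members of the lists. The relations to list levels were added after the values were seen. Lists covered inhibitors and inhibitor-like genes, substrates and partners of ADAMTS1, microfibril and elastic fibre genes, matrix metalloproteases, propeptide convertases, and markers of meningeal fibroblasts, endothelium, mural cells, astrocytes, oligodendrocytes, microglia, neurons and blood. Alternatives were the FPKM as deposited, upper-quartile scaling, pseudocounts of 1 and 0.01, other filters, no variance trend, array weights, a fit over 16 animals and leaving out libraries. No sequence is printed, since no sequence table was used here.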

Additional observations from a re-analysis of the deposited data

How the results depend on the processing

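The breed differences kept their sign in all 6 alternatives run for each gene, from 0.38 to 0.90 for ADAMTS1, 0.30 to 0.51 for ADAMTS10 and 0.47 to 1.13 for ADAM33 on the log2 scale. The number of genes called between the breeds was 0 in each direction on the FPKM as deposited (limma, 1022 at an unadjusted p under 0.05), and 145 higher and 88 lower without the 2 inflated libraries, Wagyu bull Non_agg_5 and La Quinta bull Agg_8324. These breed counts, the relations to lists and all settings without bull Agg_8165 outside the farm fit were chosen after seeing the data. The farm differences of the 3 genes kept their sign and were called under none of the alternatives. ADAMTS1 and ADAM33 fall below a mean of 1 FPKM over all 16 animals and gave no value there. Genes called higher in La Quinta, 2 as reported, were 5 on the deposited FPKM, 1 with a pseudocount of 1, 11 with array weights and 9 in the fit over 16 animals. Genes called lower, 5 as reported, were 2 with a pseudocount of 1, 2 at a mean of at least 1 FPKM and 14 with array weights. Leaving out each Lidia bull gave 2 to 4 higher and 3 to 6 lower. On the deposited FPKM, r between ADAMTS1 and ADAMTS10 in Lidia turned to 0.314 and between ADAMTS10 and ADAM33 to 0.650, while in Wagyu bulls r reached 0.893 for ADAMTS1 and ADAM33 and 0.905 for ADAMTS10 and ADAM33 (exact permutation, adjusted p = 0.01004 for each). A shared factor raises every gene of an inflated library, and 34 of the 72 list relations then passed. Without the 2 animals farthest from the median of the first gene, r turned to -0.557 for ADAMTS1 and ADAMTS10 and -0.422 for ADAMTS1 and ADAM33 in Wagyu bulls, and to 0.586 for ADAMTS10 and ADAM33 in Lidia, where it was 0.509 without bull Agg_8165. The Lidia level difference of ADAMTS1 and ADAMTS10 was -0.85 without the 2 inflated libraries and -0.88 without bull Agg_8165, neither passing the threshold (exact permutation, adjusted p = 0.0625). The causes of these changes were not tested. For ADAM33 in Lidia, r was 0.915 to 0.961 with the meningeal list and 0.910 to 0.959 with the substrate list over 8 alternatives. Without the 2 animals farthest from the median list level neither passed (exact permutation, adjusted p = 0.333 for each), nor did any other list relation. With so few animals left, the smallest possible exact p is high, so hardly any relation could pass there. The r values in that setting were 0.933 with the meningeal list and 0.925 with the substrate list. In Wagyu bulls the substrate relation missed the threshold without bull Non_agg_5 (exact permutation, adjusted p = 0.0619), while r hardly changed, from 0.898 to 0.895. Of the 5 symbol-bearing genes most like ADAMTS10, 1 was again among the 5 without bull Agg_8165 and 2 without the 2 inflated libraries. For ADAM33 and ADAMTS1 at least 3 were. No paired analysis was possible because the breeds and the farms share no animal number.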
